A study of Homo sapiens with 9 samples.

Results

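Transcript levels of platelet-derived growth factor (PDGF) ligands and receptors, and of the receptor KIT with its ligand, were compared in HUES9 cells at day 1 and at day 13 of differentiation with either of 2 related small molecules. The members were chosen by symbol as 9 genes of the 27730 in the deposited count table. They are the ligands PDGFA, PDGFB, PDGFC and PDGFD, the receptors PDGFRA and PDGFRB, the receptor-like gene PDGFRL, the receptor KIT and its ligand KITLG. All 9 had a row in the table, and all 9 passed the filter on low counts in each comparison. PDGFRA, KIT and PDGFC lie on chromosome 4, PDGFRB on 5, PDGFA on 7, PDGFRL on 8, PDGFD on 11, KITLG on 12 and PDGFB on 22.

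PDGF ligands are secreted dimers that bring receptor chains together at the cell surface, and the paired receptors phosphorylate each other and recruit adaptors that feed the MAP kinase and PI3 kinase pathways. PDGFRA is a receptor of early mesenchyme and of several progenitor cells, whereas PDGFRB is best known from pericytes and vascular smooth muscle, which it helps to recruit to vessels that release PDGFB. KIT belongs to the same class of receptor tyrosine kinases and, with KITLG (stem cell factor), supports germ cells, melanoblasts, blood progenitors and mast cells.

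HUES9 is an established human embryonic stem cell line, so all groups come from 1 line, used at passages 44 to 46. Cells were kept on mouse embryonic fibroblast feeders, pretreated with an agent named Stemolecule, spun into embryoid bodies without FGF2 and later plated on Matrigel. The day 1 group had neither AA147 nor RP22. The AA147 group, an ATF6 activator per the labels, and the RP22 group, its inactive analogue, each had 10 µM of the compound and were collected at day 13. Each group holds 3 libraries from separate experiments, as the labels state. The solvent DMSO alone was not analysed here, and mouse feeder reads, if any, could not be told apart in the tables.

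Library totals ranged from 9223027 to 10118258 reads. Levels within a gene are given as CPM (counts relative to the library total, scaled over all 9 libraries by the TMM method), and levels between genes as the authors' RPKM (reads relative to gene length and library total). The scaling bears on every AA147 value. The TMM factors were 0.786 to 0.820 in the AA147 libraries and 1.11 to 1.18 in the RP22 libraries, and over all genes the log2 fold change between AA147 and RP22 had a median of -0.03 with TMM and -0.49 with library totals alone. With TMM 48.1% of the calls in this comparison were upward, and with library totals alone 18.2%. Members whose call or direction turned with this choice are named with their values. RP22 replicate 1 stood apart from the other RP22 libraries in several members and marker lists, as given with the members and with the markers.

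The comparison of AA147 with RP22 asks how the activator and its inactive analogue, at the same dose and day, differed in these genes. PDGFA, PDGFB, PDGFC, PDGFRB and PDGFRL were higher with AA147, PDGFRA and KIT were lower, and PDGFD and KITLG did not pass the test. Thus 7 of 9 members were called, 5 higher and 2 lower (quasi-likelihood test of edgeR, with the Benjamini-Hochberg adjustment over all genes and a threshold of 0.05), where 62.0% of the 14293 genes tested were called, 29.8% higher and 32.2% lower. The share of members called was thus near that of all genes. The median log2 fold change was 0.73 over the 9 members and -0.03 over all genes. In 6 members the groups did not overlap, against 69.9% of all genes. These values are with TMM. With library totals alone 4 members were higher and 4 lower, where 13.3% of all genes were higher and 59.7% lower.

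Between the compounds, the largest change among the members was that of PDGFRA. It measured 3.90, 2.53 and 3.88 CPM in the day 1 libraries, 125.1, 45.4 and 61.2 CPM in the RP22 libraries and 11.8, 3.86 and 4.28 CPM in the AA147 libraries. The RP22 values lay above all others, and the AA147 values lay near those of day 1. PDGFRA rose 22.3-fold from day 1 with RP22 (log2 fold change 4.48 ± 0.497 SE, adjusted p = 0.00037). With AA147 its log2 fold change from day 1 was 0.95, with a 95% interval of -0.08 to 1.99 and an adjusted p of 0.082. The latter was 0.26 without AA147 replicate 1, and it passed the test without AA147 replicate 2 (1.24, 0.034) or 3 (1.20, 0.043). Between the compounds it was 12.2-fold lower with AA147 (log2 fold change -3.61 ± 0.630, adjusted p = 0.0050, edgeR quasi-likelihood test). AA147 replicate 1 held 90 of the 152 AA147 reads, and without it the log2 fold change was -4.32. RP22 replicate 1 held 1339 of the 2570 RP22 reads, and without it the value was -3.06. In bulk RNA, fewer cells that carry a transcript and less of it per cell cannot be told apart, here and for all members.

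PDGFRB moved differently from PDGFRA. It measured 1.30, 3.02 and 2.59 CPM at day 1, 110.2, 69.1 and 64.5 CPM with RP22, and 155.5, 138.5 and 132.2 CPM with AA147. Both day 13 groups lay far above day 1, and the lowest AA147 library lay above the highest RP22 library. From day 1 the gene rose 35.3-fold with RP22 (log2 fold change 5.14 ± 0.344, adjusted p = 2.1e-05) and 61.7-fold with AA147 (5.95 ± 0.201, adjusted p = 1.5e-08). These 2 comparisons share the day 1 libraries. The difference between the compounds, 0.73 ± 0.209 with an adjusted p of 0.022 (edgeR quasi-likelihood test), was less firm. It was 0.28 with library totals alone (adjusted p = 0.21), and leaving out AA147 replicate 1 (0.073), AA147 replicate 2 (0.051) or RP22 replicate 2 (0.061) also took the adjusted p past the threshold. Without RP22 replicate 1 it was 1.03 (adjusted p = 1.1e-05), without replicate 1 in both groups 0.94 (4.8e-10) and with a replicate block 0.76 (0.0014).

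Per gene length, the receptors stood at like levels with RP22 and far apart with AA147. PDGFRA measured 29.7, 11.3 and 14.9 RPKM and PDGFRB 21.4, 14.2 and 13.3 RPKM in the RP22 libraries. In the AA147 libraries PDGFRA measured 1.53, 0.705 and 0.601 RPKM and PDGFRB 22.3, 19.1 and 18.3 RPKM. PDGFRB thus made up 41.9 to 55.8% of the summed RPKM of both receptors with RP22, 93.6 to 96.8% with AA147 and 22.1 to 47.5% at day 1, where both were low. The log2 ratio of PDGFRB to PDGFRA (0.1 RPKM added to each) was -0.10 ± 0.403 (SD, n = 3) with RP22 and 4.36 ± 0.503 with AA147. All 3 AA147 libraries lay above all 3 RP22 libraries. The difference of 4.45 had p = 0.1 in an exact two-sided permutation test, the smallest that 3 against 3 libraries allow. This ratio does not depend on the scaling between libraries. The RPKM of PDGFRA carries an uncertainty of its own, since the gene length implied by its counts and RPKM varied from 4.04 to 6.32 kb over the libraries, whereas that of PDGFRB stayed between 5.69 and 5.71 kb. With counts in place of RPKM the difference was 4.43.

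**Figure D1:**
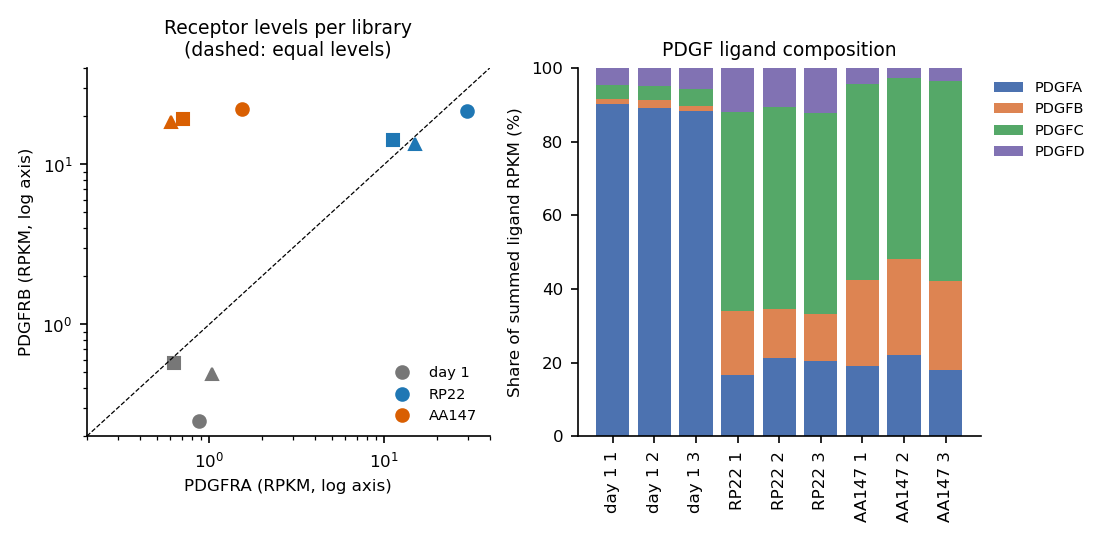
Left, PDGFRB against PDGFRA in RPKM on log axes, with 1 point per library (circle, square and triangle for replicates 1, 2 and 3) and a dashed line of equal levels. The RP22 libraries lie along the line, and the AA147 libraries lie above it with PDGFRA at 0.601 to 1.53 RPKM. Right, the share of each ligand in the summed RPKM of the 4 PDGF ligands in each library, where PDGFA makes up 88.4 to 90.3% at day 1 and PDGFC 49.0 to 54.9% at day 13.

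The 250 bases before the annotated starts of the receptors are shown because PDGFRA and PDGFRB parted between the compounds and because AA147 is labelled an activator of a transcription factor. The sequences are from RefSeq (GRCh38.p14), a later build than the GRCh37.p13 named in the submitters' processing notes, and capitals mark a CCAAT box (CCAAT) or a GC box (GGGCGG) on either strand. PDGFRA has 2 windows, chr4:54229043-54229292 and chr4:54233710-54233959, both on the plus strand, and the counts do not resolve which start was used. PDGFRB is at chr5:150155846-150156095 on the minus strand and KIT at chr4:54657707-54657956 on the plus strand.
PDGFRA, first start: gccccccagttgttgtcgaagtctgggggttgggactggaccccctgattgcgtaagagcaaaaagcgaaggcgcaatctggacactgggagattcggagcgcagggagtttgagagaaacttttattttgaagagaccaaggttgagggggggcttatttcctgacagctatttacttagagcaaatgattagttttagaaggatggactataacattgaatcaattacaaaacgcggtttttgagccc
PDGFRA, second start: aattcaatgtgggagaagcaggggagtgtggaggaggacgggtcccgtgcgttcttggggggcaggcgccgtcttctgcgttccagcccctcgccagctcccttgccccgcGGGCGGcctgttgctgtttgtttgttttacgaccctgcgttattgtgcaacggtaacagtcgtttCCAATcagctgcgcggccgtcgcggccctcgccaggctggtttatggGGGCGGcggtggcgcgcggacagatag
PDGFRB: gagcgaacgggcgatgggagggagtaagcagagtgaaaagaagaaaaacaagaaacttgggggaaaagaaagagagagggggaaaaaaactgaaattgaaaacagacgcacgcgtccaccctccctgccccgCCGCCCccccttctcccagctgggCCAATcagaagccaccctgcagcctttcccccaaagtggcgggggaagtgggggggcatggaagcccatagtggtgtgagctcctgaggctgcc
KIT: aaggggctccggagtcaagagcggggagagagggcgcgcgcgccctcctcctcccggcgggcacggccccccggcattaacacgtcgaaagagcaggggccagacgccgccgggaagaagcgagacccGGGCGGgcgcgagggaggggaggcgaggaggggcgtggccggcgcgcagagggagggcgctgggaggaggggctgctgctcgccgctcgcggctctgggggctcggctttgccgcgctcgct
The second PDGFRA window holds a CCAAT box 74 bases before the start and the PDGFRB window holds one 94 bases before the start. GC boxes lie 139 and 27 bases before the second PDGFRA start, 118 bases before that of PDGFRB, on the other strand, and 122 bases before that of KIT. A CCAAT box, which is also the first part of ERSE, is found in 32.01% of 35116 windows of this length and a GC box in 42.6%. The first PDGFRA window holds neither, and its GC content is 46.8% against 64% in the second, 58.4% for PDGFRB and 76.4% for KIT, where the median of all windows is 58%. Windows were at hand for 6 of the 9 members, not for PDGFB, PDGFC and PDGFRL. In all 10 windows of the 6 members no match was found on either strand to the endoplasmic reticulum stress elements ERSE (CCAAT and CCACG with 9 bases between them, in 0.0740% of all windows) and ERSE-II (ATTGG and CCACG with 1 base between them, in 0.0513%), to the letters TGACGTGG (0.612%) or to the cyclic AMP response element TGACGTCA (1.65%). The letters TATAAA, in 10.7% of all windows, were found in that of KITLG, 29 bases before the start. That no match was found says only that these letters are not in these windows.

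PDGFB, a ligand that binds both receptors, was the ligand with the largest difference between the compounds. It had 46 reads over the 3 day 1 libraries (1.21, 1.95 and 1.29 CPM) and measured 36.9, 27.0 and 26.8 CPM with RP22 and 135.8, 135.6 and 135.2 CPM with AA147. The 3 groups did not overlap. The log2 fold change from day 1 was 4.34 ± 0.234 with RP22 and 6.50 ± 0.140 with AA147, and between the compounds it was 2.09 ± 0.125, or 4.25-fold (adjusted p = 1.1e-05, edgeR quasi-likelihood test).

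PDGFC, which is secreted with an inhibitory domain that must be cut off before it binds PDGFRA, was the most abundant ligand per gene length at day 13. It went from 4.28, 3.70 and 5.27 CPM at day 1 to 104.2, 100.3 and 102.0 CPM with RP22 and 273.4, 228.1 and 271.9 CPM with AA147. The RP22 libraries lay close together, and every AA147 library was above them. PDGFC rose 23.1-fold from day 1 with RP22 and 58.3-fold with AA147, and it was 2.39-fold higher with AA147 than with RP22 (log2 fold change 1.26 ± 0.0899, adjusted p = 2.4e-05).

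PDGFA, the ligand that binds PDGFRA, was the only PDGF ligand that fell with RP22. It measured 71.95, 65.8 and 73.9 CPM at day 1, 24.9, 27.9 and 28.5 CPM with RP22 and 73.8, 78.9 and 69.4 CPM with AA147. The RP22 libraries lay below all others, and the AA147 libraries overlapped those of day 1. Its log2 fold change from day 1 was -1.38 ± 0.0924 with RP22 (adjusted p = 6.8e-06) and 0.07 with AA147, with a 95% interval of -0.13 to 0.26 and an adjusted p of 0.48. With library totals alone the latter was -0.37 (adjusted p = 0.0031), so whether PDGFA was below its day 1 level with AA147 depends on the scaling. PDGFA was higher with AA147 than with RP22 under both (1.37 ± 0.0882, adjusted p = 1.6e-05, edgeR quasi-likelihood test).

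PDGFD, a ligand of PDGFRB that like PDGFC needs cleavage, rose with both compounds. It measured 6.41, 6.71 and 8.46 CPM at day 1, 30.5, 25.8 and 30.1 CPM with RP22 and 28.7, 17.4 and 22.9 CPM with AA147. The day 13 groups overlapped. From day 1 its log2 fold change was 2.00 ± 0.149 with RP22 and 1.68 ± 0.214 with AA147 (adjusted p = 5.7e-05 or below). Between the compounds it was -0.40, with a 95% interval of -0.82 to 0.03 and an adjusted p of 0.091. With library totals alone it was -0.85 (adjusted p = 0.0039), and without AA147 replicate 1 it was -0.59 (0.014).

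The make-up of the ligand transcripts thus differed between day 1 and day 13. The 4 ligands summed to 36.4 to 40.5 RPKM at day 1, 71.0 to 73.3 RPKM with RP22 and 121.7 to 139.9 RPKM with AA147. PDGFA took 88.4 to 90.3% of this sum at day 1 and 16.7 to 22.2% over the 6 day 13 libraries. PDGFC took 54.1 to 54.9% with RP22 and 49.0 to 54.4% with AA147. The share of PDGFB was 12.8 to 17.3% with RP22 and 23.6 to 26.04% with AA147, and that of PDGFD 10.6 to 12.2% and 2.81 to 4.21%. Neither range overlapped between the compounds, and both shares are free of the scaling between libraries.

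PDGFRL encodes a secreted protein that resembles the ligand-binding part of PDGFRB and has no kinase domain. It measured 4.09, 4.57 and 4.68 CPM at day 1, 3.74, 4.73 and 2.59 CPM with RP22 and 11.3, 18.8 and 13.5 CPM with AA147. It was higher in every AA147 library than in the other 6. Its log2 fold change was 1.70 ± 0.221 from day 1 with AA147 (adjusted p = 6.5e-05) and 1.89 ± 0.277 between the compounds (adjusted p = 0.00066, edgeR quasi-likelihood test), and with RP22 it was -0.27, with a 95% interval of -0.89 to 0.35.

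KIT was present in all 9 libraries and varied within groups. It measured 32.1, 11.96 and 23.5 CPM at day 1, 21.7, 38.2 and 41.1 CPM with RP22 and 23.5, 20.6 and 22.7 CPM with AA147. RP22 replicate 1 lay within the AA147 range, so the day 13 groups overlapped. KIT was lower with AA147 than with RP22 by a small margin (log2 fold change -0.68 ± 0.241, adjusted p = 0.043, edgeR quasi-likelihood test). The call ended with limma-voom (0.098), with no count filter (0.054), with all 9 libraries in one fit (0.17) and without any 1 of AA147 replicates 1, 2 and 3 or RP22 replicates 2 and 3 (0.092 to 0.13). Among the settings that kept it were DESeq2 (-0.69, 0.013) and library totals alone (-1.14, 0.0066). It was also kept without RP22 replicate 1 (-0.90, 6.9e-05) and without replicate 1 in both groups (-0.96, 1.5e-07). Against day 1 neither compound gave a call. The log2 fold change was 0.58 with RP22 (95% interval -0.41 to 1.57) and -0.02 with AA147 (-0.77 to 0.73).

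KITLG, which encodes stem cell factor, rose from day 1 with both compounds. It measured 21.0, 20.0 and 18.4 CPM at day 1, 57.7, 60.5 and 53.0 CPM with RP22 and 56.4, 42.6 and 46.8 CPM with AA147. Both day 13 groups lay above day 1 and overlapped each other. The log2 fold change was 1.52 ± 0.0979 with RP22 and 1.29 ± 0.127 with AA147 (adjusted p = 9.0e-06 or below). The compounds differed by -0.31, with a 95% interval, not adjusted for the number of genes, of -0.58 to -0.04 and an adjusted p of 0.0503. With DESeq2 size factors this was -0.32 (0.042), with limma-voom -0.32 (0.042), with library totals alone -0.76 (0.00089) and without AA147 replicate 1 -0.43 (0.0072). The ratio of KITLG to KIT in RPKM was 0.620 to 1.59 at day 1, 1.22 to 2.52 with RP22 and 1.95 to 2.27 with AA147. The RP22 range overlapped both others, whereas the day 1 and AA147 ranges did not overlap.

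**Figure D2:**
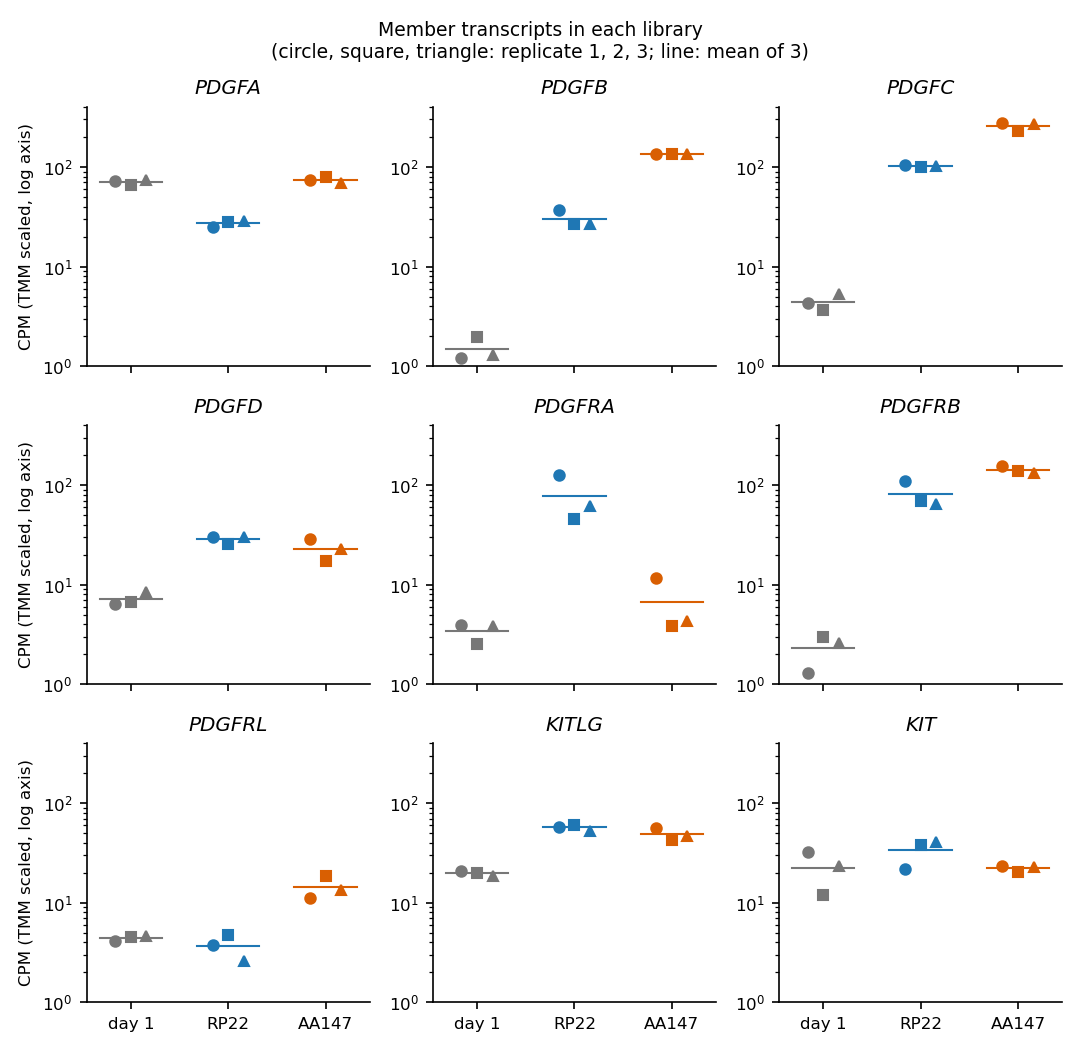
CPM of the 9 members in each of the 9 libraries on a log axis, with replicates 1, 2 and 3 as circle, square and triangle and the group mean as a line. PDGFRA is highest in the RP22 libraries (45.4 to 125.1 CPM), whereas PDGFB and PDGFC rise from day 1 to RP22 and again to AA147.

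Against day 1, RP22 gave 7 calls among the 9 members, 6 higher and 1 lower, where 71.9% of 14558 genes were called (36.6% higher and 35.2% lower). The groups did not overlap in 7 members, against 76.9% of all genes. AA147 gave 6 calls, all higher, where 79.1% of 13761 genes were called (38.7% higher and 40.4% lower; with TMM 48.9% of these calls were upward, with library totals alone 34.3%). With library totals alone the members counted 6 higher and 1 lower, the latter being PDGFA, where 28.1% of all genes were higher and 53.9% lower. The AA147 and day 1 groups did not overlap in 6 members, against 82.4% of all genes. The members that rose with both compounds were PDGFB, PDGFC, PDGFD, KITLG and PDGFRB. PDGFRA rose with RP22 and PDGFRL with AA147, and for each of these the difference between the compounds passed the test.

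**Figure D3:**
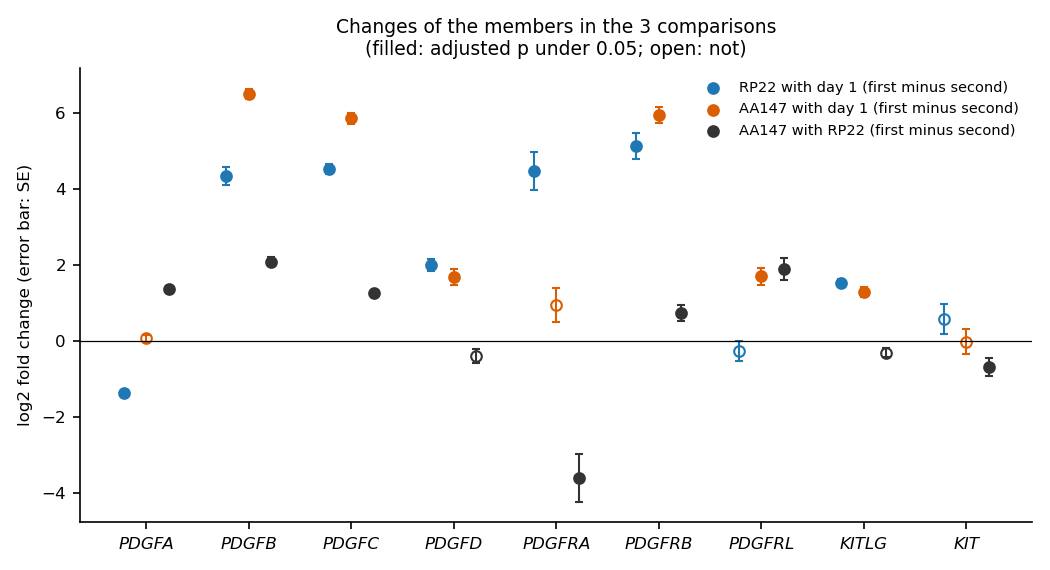
Log2 fold change of each member with its SE in the comparisons of RP22 with day 1, AA147 with day 1 and AA147 with RP22, each as first minus second, with filled points for an adjusted p under 0.05. PDGFRA is the member with the lowest value, at -3.61 for AA147 with RP22, and PDGFB the one with the highest, at 6.50 for AA147 with day 1.

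Ordered by mean RPKM, day 1 cells had PDGFA first (34.4 ± 1.68 RPKM, SD, n = 3), well above KIT (4.72 ± 2.11), KITLG (3.94 ± 0.261), PDGFRL (2.69 ± 0.191), PDGFD (1.95 ± 0.298) and PDGFC (1.59 ± 0.286). PDGFRA, PDGFB and PDGFRB followed at 0.847, 0.575 and 0.437 RPKM, and their ranges overlapped from neighbour to neighbour. KIT also overlapped with KITLG, and PDGFD with PDGFC. With RP22 the order was PDGFC (39.2 ± 0.830), PDGFRA (18.6 ± 9.74), PDGFRB (16.3 ± 4.43), PDGFA (14.0 ± 1.85), KITLG (12.1 ± 0.828), PDGFB (10.3 ± 1.65), PDGFD (8.32 ± 0.674), KIT (7.61 ± 2.57) and PDGFRL (2.38 ± 0.701). Here only PDGFC from PDGFRA, PDGFB from PDGFD and KIT from PDGFRL were apart as neighbours. With AA147 it was PDGFC (68.5 ± 7.84), PDGFB (32.1 ± 0.762), PDGFA (25.7 ± 1.75) and PDGFRB (19.9 ± 2.14), each apart from the next. KITLG (7.16 ± 1.19), PDGFRL (6.45 ± 1.60), PDGFD (4.62 ± 1.24) and KIT (3.45 ± 0.300) then overlapped as neighbours, and PDGFRA came last (0.946 ± 0.510). PDGFRA thus ranked second with RP22 and last with AA147.

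The genes whose pattern over the 9 libraries lay nearest were found by the root mean square difference of centred log2 CPM among 14673 genes, given here as a description. The libraries fall into 3 groups, so the measure rests mostly on 3 levels. The log2 CPM include a prior count of 2, which sets the value of a gene without reads. For PDGFRA the nearest were AKAP4 (0.257), FGG (0.326) and GDF7 (0.330), none with a read at day 1 and each with 2.55 to 5.92 CPM on average with RP22. The day 1 values of these genes thus rest on the prior count. For PDGFRB they were CDH11 (0.183), SFN (0.226) and SLC4A4 (0.266), with CDH11 at 6.85, 211 and 424 CPM at day 1, with RP22 and with AA147. PDGFB lay nearest to MMP2 (0.109), CLSTN2 (0.220) and CAV2 (0.263), and PDGFC to EGFR (0.219), S100A6 (0.252) and ENDOD1 (0.254). PDGFA lay nearest to SEL1L3 (0.130), PACSIN3 (0.142) and IRS2 (0.169), and PDGFD to ATRNL1 (0.131), ADAM8 (0.168) and CMTM1 (0.192). PDGFRL lay nearest to HIF1A (0.212), FHL2 (0.226) and ARHGAP1 (0.231), KIT to CELSR2 (0.186), CCDC147 (0.206) and RNF122 (0.220), and KITLG to SRGAP1 (0.0896), HDAC11 (0.110) and PTPRD (0.115).

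PDGFRA, KIT and KDR, which encodes a receptor of vascular endothelial growth factor, are direct neighbours among the protein-coding genes of chromosome 4 in RefSeq order. All 3 were lower with AA147 than with RP22. KDR measured 44.5 ± 11.9 CPM (SD, n = 3) at day 1, 87.5 ± 38.4 CPM with RP22 and 8.25 ± 6.15 CPM with AA147, a log2 fold change of -3.47 ± 0.636 between the compounds (adjusted p = 0.0061). The genes around them did not share a direction. Of 13 tested genes of a list of 15 from this region, the 3 receptors included, 4 were higher and 5 lower, against 29.8% and 32.2% of all genes (2 and 8 with library totals alone). CHIC2 (1.20 ± 0.0937) and TMEM165 (1.26 ± 0.0785), a Golgi membrane protein, were higher under both scalings. SRD5A3 had a value of 0.33 with TMM (adjusted p = 0.039) and of -0.12 with library totals alone (0.38). NMU (-4.71 ± 0.620), which encodes neuromedin U, and CEP135 (-0.54 ± 0.0998), a centriole protein, were lower. GSX2, next to PDGFRA on the other side, had no reads in any library.

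The counts of calls in gene lists between AA147 and RP22 stand beside those of all genes tested, of which 29.8% were higher and 32.2% lower with TMM, and 13.3% higher and 59.7% lower with library totals alone. Of 13 tested genes that process or bind PDGF, 9 were higher and 3 lower with AA147. Their log2 fold changes had a median of 0.74, against -0.03 over all genes. With library totals alone 7 were higher and 4 lower. Among the higher were PLAUR (2.16 ± 0.131), the receptor of the urokinase that can cleave PDGFD, SPARC (2.08 ± 0.277), a matrix protein that binds PDGF, and the endocytic receptor LRP1 (1.13 ± 0.120). Among the lower were A2M (-5.77 ± 0.965), a plasma protein that binds PDGF, and the co-receptors NRP1 (-1.57 ± 0.363) and NRP2 (-1.27 ± 0.151). The RP22 values of A2M were uneven, at 128 ± 93.3 CPM (SD, n = 3). The 6 genes had adjusted p of 0.0125 or below (edgeR quasi-likelihood test).

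The balance of adaptors and effectors of the receptors depended on the scaling, as did that of all genes. Of 32 tested, 16 were higher and 7 lower with TMM, and 2 higher and 16 lower with library totals alone, with medians of 0.16 and -0.30. STAT3 (0.85 ± 0.120) and the MAP kinase kinase MAP2K1 (0.73 ± 0.0886) were higher under both, whereas PIK3CA (0.66 ± 0.113), a catalytic subunit of PI3 kinase, was 0.20 with library totals alone (adjusted p = 0.10). STAT5B (-0.80 ± 0.0918), PIK3R1 (-0.67 ± 0.120) and PLCG1 (-0.63 ± 0.116) were lower under both. A list on receptor downregulation, which also holds the adaptors SH2B1 and SH2B2, had 15 tested genes. Of these 5 were higher and 3 lower (3 and 8 with library totals alone). Thus 8 of 15 were called, where 62.0% of all genes were. They included SNX2 (1.35 ± 0.160) and PTPN6 (0.87 ± 0.114) as higher, and SH2B2 (-1.68 ± 0.267), CBLB (-0.37 ± 0.0830) and SH2B1 (-0.29 ± 0.0909) as lower.

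Immediate early genes and genes of feedback on the ERK pathway are often read downstream of receptor tyrosine kinases. The part of the PDGF receptors or KIT in the values of these lists was not tested. Of 15 immediate early genes, 12 were higher with AA147 and none lower (10 and 0 with library totals alone), where 29.8% and 32.2% of all genes were, and their median log2 fold change was 1.24. IER3 rose from 34.2 ± 4.83 to 334.9 ± 31.9 CPM (SD, n = 3), CTGF from 239.0 ± 45.3 to 1718.7 ± 171.2 CPM and CYR61 from 243.6 ± 36.9 to 1454.3 ± 155.3 CPM between RP22 and AA147. Of 12 genes of feedback on the ERK pathway and its ETS factors, none was higher and 8 were lower (0 and 10 with library totals alone, where 59.7% of all genes were lower), with a median of -0.82. ETV1 went from 27.2 ± 9.30 to 2.26 ± 1.65 CPM, SPRY1 from 12.5 ± 1.69 to 2.67 ± 1.55 CPM and the ERK phosphatase DUSP6 from 29.7 ± 1.99 to 7.52 ± 1.95 CPM. Each of the 6 had an adjusted p of at most 0.0013 in the edgeR fit.

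Of 9 tested genes of related receptors and their ligands, 2 were higher and 4 lower with AA147 (2 and 5 with library totals alone). CSF1R, the receptor of colony-stimulating factor 1, was higher (1.97 ± 0.407, 24.97 ± 8.57 against 5.99 ± 2.68 CPM), as was VEGFB (0.76 ± 0.103). The placental growth factor PGF (-4.24 ± 0.280), VEGFA (-0.83 ± 0.103) and KDR, given above, were lower. Their adjusted p was 0.0061 or below (edgeR quasi-likelihood test).

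Markers of cell types that can carry these genes also differed between the groups, in part in other directions than the members, and their part in the results was not tested. The mesenchyme and fibroblast list summed to 329.6 to 416.4 CPM at day 1, to 22078 CPM in RP22 replicate 1 against 6375 and 6946 CPM in replicates 2 and 3, and to 32698 to 42577 CPM with AA147. At day 1, with RP22 and with AA147, 6, 10 and 8 of its 10 genes reached 1 CPM. The AA147 sum rests on the collagens COL1A1 (13620 CPM), COL3A1 (12790 CPM) and COL1A2 (11054 CPM). Of the 10 genes, all tested, 2 were higher and 2 lower with AA147 than with RP22, against 29.8% and 32.2% of all genes. With library totals alone 2 were higher and 3 lower. Their median log2 fold change was -0.77 with TMM. PRRX1 stood at 9.89 CPM with RP22 and 0.962 CPM with AA147, TCF21 at 10.7 and 0.964 CPM and COL1A1 at 3296 and 13620 CPM. TCF21 had no reads at day 1. AA147 replicate 1, which held most AA147 reads of PDGFRA, also held all 22 reads of PRRX1 and 21 of the 22 reads of TCF21 in that group. The other genes of the list also had their most AA147 reads in replicate 1, except LUM and COL3A1, which had theirs in replicate 3. The skew was not limited to this list. Replicate 1 also held 26 of the 27 AA147 reads of GATA4 and 45 of the 54 of TEK, from the yolk sac and endothelium lists. RP22 replicate 1 was the RP22 library with the most PDGFRA, the most PDGFRB and the highest mesenchyme sum. Replicate 1 was also the highest RP22 library in the smooth muscle, endothelium, oligodendrocyte precursor, melanoblast and yolk sac sums. It was the lowest in the neural progenitor, germ cell and undifferentiated sums. The smooth muscle and pericyte list, which holds cells known for PDGFRB, summed to 304.8 to 307.5 CPM at day 1, 739.8 to 965.1 CPM with RP22 and 3315 to 3682 CPM with AA147. At 1 CPM or more were 11, 13 and 12 of its 14 genes. With AA147 the sum rests on TAGLN (2171 CPM), ACTA2 (807 CPM) and CNN1 (356 CPM), and of 12 tested genes 3 were higher and 3 lower than with RP22 (3 and 4 with library totals alone). The pericyte marker RGS5 stood at 160 CPM with RP22 and 19.1 CPM with AA147, and ABCC9 had no reads at day 1 and HIGD1B none at day 1 or with RP22.

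Endothelium is a known source of PDGFB. Its list summed to 27.3 to 32.8 CPM at day 1, 46.2 to 73.9 CPM with RP22 and 6.17 to 15.1 CPM with AA147. The sum and PDGFB were thus both higher with RP22 than at day 1, and between the compounds the sum was lower and PDGFB higher with AA147. Of 10 markers 4 reached 1 CPM at day 1, 8 with RP22 and 3 with AA147, and PECAM1 had no reads at day 1 or with AA147 (ROBO4 none at day 1). Lists of other cells that can carry PDGFRA differed in their order over the groups. Primitive endoderm and yolk sac genes summed to 7.25 to 11.6 CPM at day 1, 139.2 to 237.6 CPM with RP22, highest in replicate 1, and 32.3 to 46.6 CPM with AA147, with 3, 8 and 4 of 8 genes at 1 CPM or more and HNF4A without reads with AA147. Oligodendrocyte precursor genes summed to 119.0 to 184.5, 230.3 to 500.9 and 67.3 to 112.4 CPM in the same order, with 3, 4 and 1 of 6 at 1 CPM or more. RP22 replicate 1 had the 500.9 CPM, against 230.3 and 236.1 CPM in RP22 replicates 2 and 3. OLIG1, OLIG2 and NKX2-2 had no reads with AA147, and NKX2-2 none with RP22, whereas MBP stood at 13.4 CPM with RP22 and 90.7 CPM with AA147. Neural progenitor genes summed to 1531 to 1648, 746.3 to 1091 and 698.9 to 916.4 CPM, with 6, 8 and 2 of 8 at 1 CPM or more. Of 7 tested, 0 were higher and 6 lower with AA147 than with RP22, against 29.8% and 32.2% of all genes. With library totals alone these counts were also 0 and 6, against 13.3% and 59.7% of all genes. The median log2 fold change of the list was -7.19 with TMM. HES5 and FABP7 had no reads with AA147, and NES made up 786 CPM there.

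KIT was present at 20.6 to 23.5 CPM with AA147, where some markers of its best-known cell types had reads and others had none, and their part in the KIT values was not tested. The germ cell genes DDX4, DAZL and DPPA3 had no reads with AA147, and that list summed to 53.6 to 86.1 CPM at day 1, 72.1 to 98.8 CPM with RP22 and 61.2 to 71.0 CPM with AA147, with 4, 4 and 2 of 8 at 1 CPM or more. TFAP2C (54.3 CPM) and KLF4 (9.14 CPM) made up most of that sum with AA147. DDX4 and NANOS3 had no reads at day 1. Of the 10 blood and mast cell genes 8 had no reads with AA147, TAL1, GATA1, SPI1, PTPRC, CPA3, TPSAB1, HBA1 and HBB, and CPA3 and HBB had none in any group. That list summed to 8.27 to 14.6, 70.3 to 73.2 and 134.9 to 154.5 CPM, with 1, 2 and 2 of 10 at 1 CPM or more, where RUNX1 made up 134.6 CPM and GATA2 8.52 CPM with AA147. Melanoblast and neural crest genes summed to 68.8 to 102.9, 319.7 to 378.1 and 126.1 to 154.9 CPM, with 5, 7 and 4 of 8 at 1 CPM or more. With AA147 TFAP2A stood at 128.7 CPM, PMEL at 6.20, MITF at 2.51 and TYRP1 at 1.18 CPM, DCT and TYR had 2 reads each and FOXD3 none. DCT and TYR had no reads at day 1. Undifferentiated cells, in which KIT is also known, were marked by a sum of 6300 to 7126 CPM at day 1, 396.6 to 682.5 CPM with RP22 and 126.0 to 158.5 CPM with AA147, with 8, 8 and 4 of 8 genes at 1 CPM or more and NANOG without reads with AA147.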

How the data were processed

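RNA sequencing of 9 HUES9 libraries was analysed from 2 deposited tables. The authors deposited expected counts per gene symbol and library, and RPKM scaled to gene length and library size, per the file headers. GRCh37.p13 is the build named in the submitters' processing notes. The aligner, counter and annotation were not given in the sources used here. The count table had 27772 rows. A floor of 0.05 (41.43% of values) was read as 0, fractions (0.9142% of values) were rounded, and 42 repeated symbols were summed, which left 27730 genes.

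The tests were run with edgeR 4.0.16 (R 4.3.3), using filterByExpr, TMM and the robust quasi-likelihood F test on the 6 libraries of each comparison, with group as the only term and Benjamini-Hochberg adjustment over all genes tested (threshold 0.05). The common biological coefficient of variation came to 15.4% between the compounds, and against day 1 to 15.6% for RP22 and 12.3% for AA147. The SE is the absolute log2 fold change divided by the square root of F, and 95% intervals use the t distribution of the same fit. CPM and their SD are on 1 TMM scale over the 9 libraries. P-values measure the spread between 3 libraries per group. The procedure was also run on simulated counts with far fewer changed genes than were called here, so that run does not bear on the choice of scaling. Alternatives were DESeq2 1.42.0, limma-voom and limma 3.58.1 on log2 RPKM (0.1 or 1 added), DESeq2 size factors, library totals alone, fits without the count filter, with all 9 libraries, with a replicate block and with libraries left out.

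The 9 members and all lists were chosen with earlier results of these data known. Genes named besides the members are, of each pathway or region list, up to 3 in each direction with the largest change between AA147 and RP22 among called genes whose groups were apart and whose higher group averaged at least 5 CPM, and the 3 genes nearest to each member. One gene that this rule names is not reported here. Marker lists were counted and summed, and the marker genes given with values were chosen after these were seen. Motifs were searched in RefSeq promoter windows, cut to the bases before the start.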

Additional observations from a re-analysis of the deposited data

Results flagged for a closer look

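The change from day 1 differed between the compounds in 7 members, by the test of AA147 with RP22 (quasi-likelihood test of edgeR, adjusted p of 0.043 or below after Benjamini-Hochberg, 3 libraries per group). Since both changes are taken from the same day 1 libraries, the difference is the comparison of the compounds itself. PDGFRA differed by -3.61 on the log2 scale, with changes from day 1 of 4.48 with RP22 and 0.95 with AA147. PDGFB differed by 2.09 (4.34 and 6.50) and PDGFC by 1.26 (4.53 and 5.87), both on top of large rises with either compound. PDGFA differed by 1.37 (-1.38 and 0.07) and PDGFRL by 1.89 (-0.27 and 1.70). PDGFRB differed by 0.73 (5.14 and 5.95) and KIT by -0.68 (0.58 and -0.02), and both of these calls ended under several alternatives. All 3 RP22 libraries moved below day 1 in PDGFA, where those with AA147 overlapped it.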

How the results depend on the processing

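The number of members called kept within 1.5 times its value under every alternative run. It was 5 to 9 for AA147 with RP22 (7 as reported, 5 to 7 with 1 library left out, 9 without replicate 1 in both groups), 7 throughout when RP22 was set against day 1, and 6 to 7 when AA147 was (6 as reported, 6 to 7 with 1 library left out). The numbers of all genes called also stayed within 1.5 times. Of the single values of members under the alternatives, 391 kept their direction and side of the threshold, 15 lost the call, 17 gained one and 9 turned their direction. The 9 turns were of 2 changes that were not called, and for KIT the cause was not tested. PDGFA in AA147 with day 1 was 0.07 as reported, -0.37 with library totals alone, -0.42 with limma on log2(RPKM + 0.1) and -0.40 on log2(RPKM + 1), where RPKM is scaled to library totals. KIT in AA147 with day 1 was -0.02 as reported, 0.09 with limma-voom, 0.06 with a replicate block, 0.29 without replicate 1 in both groups, and -0.32 to 0.33 with 1 library left out (0.05 without AA147 replicate 2, 0.33 without day 1 replicate 1 and 0.01 without day 1 replicate 3). The log2 ratio of PDGFRB to PDGFRA between the compounds was 4.45 as reported, 3.55 with 1 RPKM added, 4.60 with 0.01 added, and 4.27 to 4.74 with 1 library left out.

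The labels give the same replicate numbers to all groups. Deviations of same-numbered libraries from their group means correlated at 0.191, 0.153 and 0.0633 for AA147 with RP22, at -0.0361, -0.0211 and 0.0580 for RP22 against day 1, and at 0.0201, 0.0446 and -0.0546 in the AA147 and day 1 libraries, so the numbers were not taken to pair the libraries. Each library correlated best with its own number for AA147 replicates 1 and 2 against RP22, and AA147 replicate 3 did so with RP22 replicate 2 (0.109). With a replicate block 8 members were called for AA147 with RP22 (5 higher and 3 lower), and 7 in each comparison against day 1. The calls gained under it were PDGFD (-0.42, adjusted p = 0.030) and KITLG (-0.32, 0.048) between the compounds and PDGFRA (0.83, 0.048) with AA147 against day 1, and KIT (-0.64, 0.051) between the compounds was not called. The receptor ratio had the same value of 4.45 over same-numbered libraries, where an exact sign test cannot go below p = 0.25.

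Depth limits the low members, with 46 reads of PDGFB, 71 of PDGFRB and 107 of PDGFRA over the 3 day 1 libraries.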

Other observations

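The length implied by the deposited counts and RPKM differed between groups for PDGFB. It was 2.79 kb in each of the 3 day 1 libraries, which held 13 to 20 reads, 3.34 to 3.38 kb in the RP22 libraries and 3.36 to 3.38 kb in the AA147 libraries. For PDGFRA it was 4.04 to 4.84 kb at day 1, 4.68 to 4.86 kb with RP22 and 4.31, 5.63 and 6.32 kb in the AA147 libraries, which held 28 to 90 reads. For KIT, PDGFC, PDGFRL, PDGFD, PDGFRB and KITLG the highest and lowest implied lengths were within 1.01 times of each other. How the authors assigned reads to the transcripts of a gene is not given in the sources used here.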
